A study of Mus musculus with 2 samples.

Results

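Of the 42 genes described here, 41 code for proteins with which cells build the extracellular matrix of the lung, the collagens, laminins, elastic fibre proteins and matrix-binding glycoproteins. They were chosen by symbol: every gene of the collagen, laminin and fibulin families together with Nid1, Nid2, Hspg2, Sparc, Sparcl1, Eln, Fn1, Fbn1, Emilin1, Emilin2, Tnc and Mgp, provided that it had at least 20 unique molecular identifiers (UMIs), where 1 UMI stands for 1 captured transcript, over both libraries. Of 31053 genes in the tables, 72 matched by symbol and 42 reached the minimum. Col5a3 and Col23a1, with 21 UMIs each, were just inside this limit, and Tnc and Nid2, with 18 UMIs each, were just outside it. Of the 30 matching genes below it, 18 had at least 1 UMI and 12 had 0. Col4a3bp matched by its letters alone, since it codes for a ceramide transfer protein and not for a component of the matrix, so it is kept in the counts and named as such.

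The cells came from lungs of NG2tdT mice, in which the NG2-CreERTM transgene, after tamoxifen (2 mg per 30 g body weight), switches on tdTomato from the Ai14 allele in cells that express NG2 (gene Cspg4), a proteoglycan of pericytes and some smooth muscle cells. The mice, male per the study's methods, carried both alleles and received tamoxifen, followed by 7 days of rest. The Hypoxia library came from mice then kept at 10% inspired oxygen for 21 days, and the Normoxia library from mice without this exposure. There was 1 library per group, so no replicate spread was measured and no test between groups was made: every difference is one between these 2 libraries, and the 95% intervals given throughout reflect counting error alone. The mice of the study were 2 to 4 months old, and the number of lungs per library is not given in the sources used here.

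The libraries are labelled as sorted tdTomato cells, but most of the cells retained were endothelial-like, lymphoid-like or myeloid-like. Among the 293 Normoxia and 453 Hypoxia cells retained, 97 and 198 were endothelial-like (clusters 1, 4, 7, 9 and 15), 84 and 27 stromal-like (clusters 5 and 6), 62 and 135 lymphoid-like, and 30 and 73 myeloid-like. Another 20 and 20 cells made up cluster 8, which carried 16 of 17 endothelial markers but was led by Scgb1a1, Tpm1 and Vwf and was not named. In the stromal-like cells Cspg4 had a UMI in 1 of 84 Normoxia and 0 of 27 Hypoxia cells, while Pdgfrb had one in 24 and 9 cells. Cluster 6, with 45 Normoxia and 6 Hypoxia cells, carried the pericyte genes Pdgfrb, Rgs5 and Kcnj8, but also other stromal genes. Among these were the smooth muscle or myofibroblast genes Acta2, Tagln, Myl9, Hhip and Aspn and the fibroblast genes Dcn, Lum, Mfap4 and Dpt. Of 8 listed pericyte markers, 8 were detected in its Normoxia cells and 7 in its Hypoxia cells. In its Normoxia cells the pericyte list had 294 UMIs, the smooth muscle or myofibroblast list 1241 and the fibroblast list 778. In its Hypoxia cells these were 22, 156 and 38. The detected markers therefore do not single out pericytes. Depth was alike in the endothelial-like cells, with medians of 2510 UMIs per Normoxia and 2820.5 per Hypoxia cell, and in the stromal-like cells, with 3770.5 and 3693. The libraries shared 2 cell barcodes.

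Basement membranes are thin sheets under endothelial and epithelial cells and around mural cells, woven from a collagen IV network and a laminin network that nidogen and perlecan join. In the interstitium, fibroblasts lay down fibrillar collagens for tensile strength and elastic fibres for recoil, both of which the breathing lung needs. Glycoproteins such as fibronectin, SPARC and SPARC-like 1 bind these networks and cells, and thickening of the vessel wall by matrix is a known feature of pulmonary hypertension.

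The most widespread collagen IV protomer joins α1 and α2 chains, made from the neighbouring genes Col4a1 and Col4a2. In the annotation these lie head to head on chromosome 8 of GRCm38, Col4a1 on the minus strand from 11198423 to 11312826 and Col4a2 on the plus strand from 11312805 to 11449287, and their first bases overlap by 22. This overlap is shown because it is the point from which the genes are read in opposite directions. It lies at chr8:11312805-11312826 and 72.7% of its bases are G or C. The RefSeq windows of 250 bases before to 50 after each start together span 522 bases and hold 2 matches to GCGTG and none to ACGTG, searched on both strands as the core letters of the sequence that hypoxia-inducible factors bind. Each match is printed with its neighbouring bases, read along the strand that carries it and with the matching letters in capitals.
Shared start of Col4a1 and Col4a2, chr8:11312805-11312826, plus strand: agtgcgcgggcggcgtctccaa
Match inside Col4a1, chr8:11312692-11312712, plus strand: gggcccggGCGTGagccctgc
Match inside Col4a2, chr8:11312985-11313005, minus strand: cggccccgGCGTGccttgctg
Such letters are common. Either motif occurred in 14 of the 31 members with a RefSeq promoter (45.2%) and in 43.8% of all 27025 promoters (GRCm38.p6), so their presence sets no member apart. A match describes the letters and not a site in use.

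Matrix transcripts came mainly from the stromal-like cells. The 42 members together made up 3.38% (3.32 to 3.43%) of all UMIs of these cells in Normoxia and 4.06% (3.95 to 4.18%) in Hypoxia. Mgp alone gave 7129 of these member UMIs over both libraries, where all 42 members gave 12275 in Normoxia and 4637 in Hypoxia. The larger Hypoxia share does not hold for most members: of the 37 with at least 20 UMIs in these cells, 15 were higher and 22 lower. In the endothelial-like cells the share was 0.199% (0.182 to 0.216%) and 0.447% (0.431 to 0.463%), and in the lymphoid-like cells, which are not known as a source of most of these proteins, 0.0294% (0.0232 to 0.0366%) and 0.0206% (0.0165 to 0.0256%). Of the 42 members, 34 had more retained UMIs in stromal-like than in any other cells and 6 in endothelial-like cells: Col4a1 (80.2% of retained UMIs), Col4a2 (82.5%), Lama5 (74%), Sparcl1 (59.0%), Col4a3bp (52.5%) and Emilin1 (52.1%). The other two, Lamb3 and Emilin2, had most UMIs in lymphoid-like and myeloid-like cells. Members were kept out of the genes that set the clusters, so these places were not fixed by the clustering itself.

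**Figure D1:**
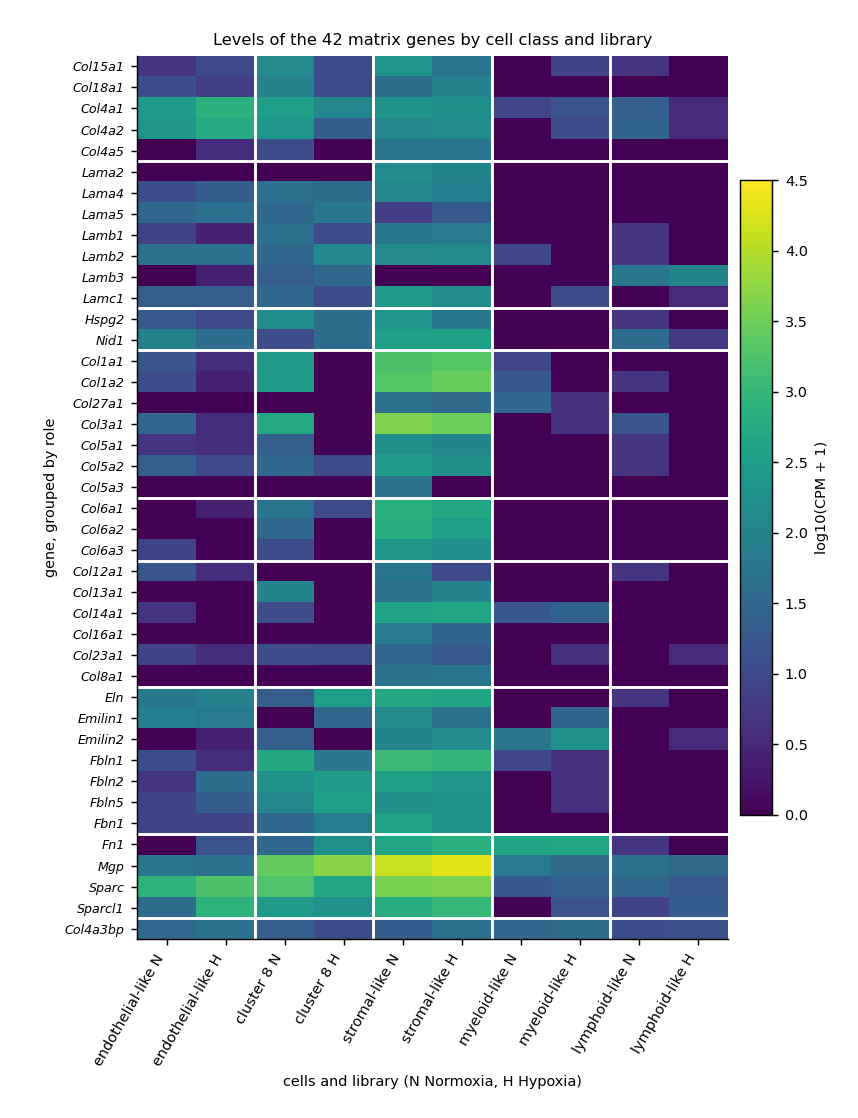
Levels of the 42 members (rows, grouped by role) in 5 sets of cells, each with its Normoxia and Hypoxia column; colour gives log10(CPM + 1) on a log scale, where CPM is the UMIs of a gene scaled to a total of 1000000 UMIs over the cells. Mgp, Sparc and Col3a1 are brightest in the stromal-like columns, Sparcl1 differs most between the endothelial-like columns, and the lymphoid-like columns are darker, with Lamb3 and then Mgp as their brightest members.

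The first comparison asked which matrix genes differed between the libraries in endothelial-like cells. Sparcl1, both collagen IV genes and Sparc were more abundant in the Hypoxia cells by more than counting error, while the intervals of the laminin genes, Eln and Mgp included no difference. Of the 42 members, 13 had at least 20 UMIs over both libraries in these cells, and 5 of the 13 (Sparcl1, Fbln2, Col4a1, Col4a2 and Sparc) were past 2-fold higher in Hypoxia, where 6.13% of all 6312 genes at this minimum were. Past 2-fold lower was 1 member, Nid1, where 4.56% of all genes were. The median log2 ratio was 0.52 over the 13 members and -0.02 over all genes. A member that is abundant in the Hypoxia cells alone can reach the minimum through that library, which holds more cells, so the count describes these members and is no support for a shared direction. Cluster 1, led by Ntrk2 and Cdk19, gave 112 of the 198 Hypoxia but 17 of the 97 Normoxia cells, whereas cluster 4, led by Plvap, gave 38 Normoxia cells, and the results with most counts are therefore given by cluster as well. In cluster 1, 5 of 12 members at the minimum were past 2-fold higher and 1, Emilin1, was lower, where 14.1% and 8.36% of all genes were. In cluster 4 these were 3 and 0 of 4 (5.05% and 6.69% of all genes), in cluster 7 they were 1 and 0 of 4 (6.17% and 6.04%), and in cluster 9 they were 1 and 0 of 3 (5.09% and 5.83%). With cluster 8 added to the class, 5 of 22 members were higher and 6 lower, where 5.98% and 5.03% of all genes were.

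**Figure D2:**
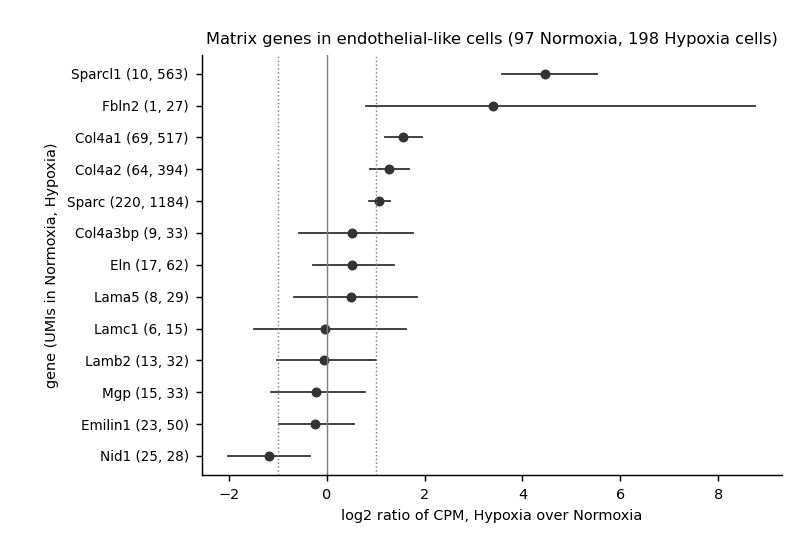
Log2 ratio of CPM, Hypoxia over Normoxia, for the 13 members with at least 20 UMIs in endothelial-like cells; points are ratios, bars their 95% counting intervals, dotted lines the 2-fold limits, and numbers in brackets the UMIs in each library. The intervals of Sparcl1, Fbln2, Col4a1, Col4a2 and Sparc lie above 0, that of Nid1 below 0, and the other 7 cross it.

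Sparcl1 (chromosome 5, 104079111 to 104113733, minus strand), which codes for the secreted glycoprotein SPARC-like 1 or hevin, had the largest ratio of the 13. It had 10 UMIs in the 97 Normoxia cells and 563 UMIs in the 198 Hypoxia cells, a level of 37.3 (17.9 to 68.6) CPM and 824 (757 to 895) CPM, and the log2 ratio of these levels was 4.46 (3.57 to 5.53). No Normoxia cell had more than 2 Sparcl1 UMIs, whereas 81 of the 198 Hypoxia cells (40.9%) had at least 3 and the highest had 30. Before thinning, Sparcl1 had a UMI in 9 of 97 Normoxia and 144 of 198 Hypoxia cells, and in 2 of 62 and 8 of 135 lymphoid-like cells, whose median depths were 3199 and 2486 UMIs. After each cell was thinned to 1000 UMIs, which left out 4 Normoxia and 7 Hypoxia endothelial-like cells, the share with Sparcl1 was 6.45% (2.404 to 13.5%) for Normoxia and 54.5% (47.1 to 61.7%) for Hypoxia. In lymphoid-like cells, where a UMI is read as free RNA, the thinned shares were 1.61% and 2.24%, so the Normoxia endothelial share lay within the interval of that background, 0.0408 to 8.66%. The direction did not depend on the settings tried, but the size did: the log2 ratio was 3.09 with no mitochondrial maximum, 2.94 with cells chosen one by one by their markers and 2.98 with cluster 8 added.

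Sparcl1 was higher in Hypoxia in each of the 4 larger endothelial-like clusters. In cluster 1 its level was 68.1 CPM in the Normoxia cells and 945 CPM in the Hypoxia cells, giving a log2 ratio of 3.79 (2.24 to 6.08). In cluster 4 it was 61.5 CPM and 1122 CPM, giving a log2 ratio of 4.19 (3.11 to 5.53), with a UMI in 7 of 38 Normoxia and 29 of 32 Hypoxia cells. In cluster 7, led by Aplnr, Kit and Gpihbp1 among others, there was no Sparcl1 UMI in 19 Normoxia cells and 44 UMIs in 28 Hypoxia cells, at least 8.74-fold higher when 0 is taken as 3 counts. In cluster 9, which carried the aerocyte genes Car4, Ednrb and Apln, there was again no UMI in 19 Normoxia cells and 18 in 20 Hypoxia cells, at least 4.32-fold higher, but 12 of the 18 came from 1 cell, without which 6 UMIs in 3 cells were left, at least 1.51-fold higher. Within the Hypoxia library the level in cluster 9, 218 (129 to 345) CPM, was below those of clusters 1, 4 and 7, whose intervals began at 558 CPM or above.

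**Figure D3:**
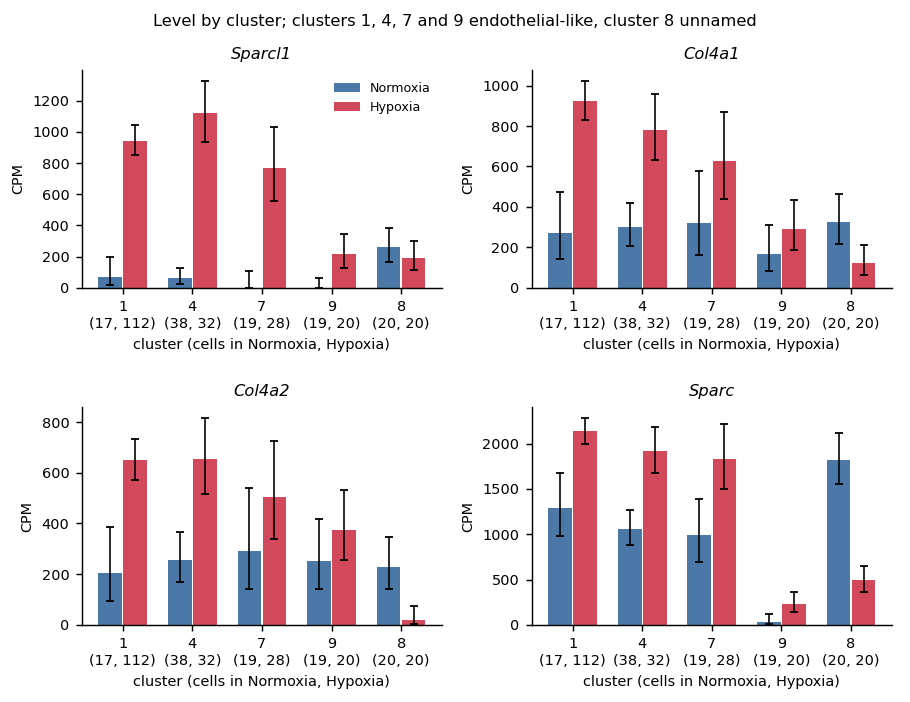
CPM of Sparcl1, Col4a1, Col4a2 and Sparc in endothelial-like clusters 1, 4, 7 and 9 and in unnamed cluster 8, with Normoxia (blue) and Hypoxia (red) bars, exact 95% Poisson intervals and the cells per library under each cluster. The red bar is the taller in clusters 1, 4, 7 and 9 for all 4 genes, and the blue bar is the taller in cluster 8.

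Both collagen IV genes were higher in the Hypoxia cells. Col4a1 had 69 UMIs in Normoxia and 517 in the Hypoxia cells, a level of 258 (200.4 to 326) CPM and 757 (693 to 825) CPM, giving a log2 ratio of 1.55 (1.19 to 1.94). Col4a2 had 64 and 394 UMIs, a level of 239 (184 to 305) CPM and 577 (521 to 636) CPM, giving a log2 ratio of 1.27 (0.89 to 1.68). Since the chains are built into 1 protomer, their balance was compared too: Col4a1 made up 51.9% (43.1 to 60.6%) of the UMIs of the pair in Normoxia and 56.8% (53.5 to 59.996%) in Hypoxia, intervals that overlap. At least 1 UMI of both genes was found in 28 of 97 Normoxia and 106 of 198 Hypoxia cells, and neither gene in 37 and 26 cells.

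By cluster, the log2 ratio of Col4a1 was 1.76 (0.94 to 2.73) in cluster 1 and 1.39 (0.81 to 2.00) in cluster 4, both above 0 by more than counting error. In clusters 7 and 9 it was 0.96 (-0.04 to 2.09) and 0.79 (-0.33 to 2.02), with intervals that included 0. Col4a2 gave 1.67 (0.72 to 2.81), 1.36 (0.73 to 2.03), 0.79 (-0.29 to 1.99) and 0.57 (-0.36 to 1.57) in the same 4 clusters, where again the last pair of intervals included 0. After thinning, Col4a1 was detected in 18.3% (11.02 to 27.6%) of the Normoxia and 48.2% (40.9 to 55.5%) of the Hypoxia cells, and Col4a2 in 25.8% (17.3 to 35.9%) and 35.6% (28.8 to 42.8%), and the intervals of the latter overlap. Thinned to this depth, the log2 ratio of Col4a2 was 0.56, under the 2-fold limit, and that of Col4a1 was 1.81. Before thinning, the cells with a UMI were 44 of 97 and 147 of 198 for Col4a1 and 44 of 97 and 131 of 198 for Col4a2. The thinned lymphoid-like shares were 1.61% in Normoxia and 0.746% in Hypoxia for each of these genes.

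**Figure D4:**
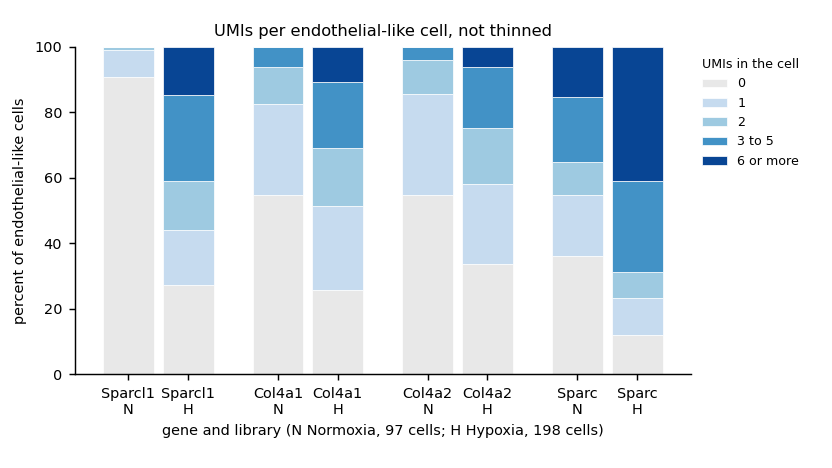
Percent of endothelial-like cells (97 Normoxia, 198 Hypoxia) by the number of UMIs of Sparcl1, Col4a1, Col4a2 and Sparc in the cell, before thinning. Sparcl1 was at 0 in 90.7% of Normoxia and 27.3% of Hypoxia cells, and cells with 6 or more UMIs of Sparcl1, Col4a1 or Col4a2 occur in the Hypoxia bars only.

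Sparc (chromosome 11, 55394500 to 55423183, minus strand) codes for a collagen-binding glycoprotein, also called osteonectin, and was the most abundant member in endothelial-like cells. Its 220 Normoxia and 1184 Hypoxia UMIs corresponded to 821 (716 to 937) CPM and 1733 (1635 to 1834) CPM, giving a log2 ratio of 1.08 (0.87 to 1.29). The median cell held 1 Sparc UMI in Normoxia and 4.5 in Hypoxia. Sparc had a UMI in 62 of 97 and 174 of 198 cells, and after thinning in 47.3% (36.9 to 57.9%) and 76.4% (69.8 to 82.3%), against 1.61% and 1.49% of lymphoid-like cells. Cluster 9 stood apart from the other clusters, with 230.2 CPM in Hypoxia where clusters 1, 4 and 7 had 1834 to 2137 CPM. In cluster 9 the log2 ratio was 2.77 (0.72 to 5.92) from 2 Normoxia and 19 Hypoxia UMIs, and in clusters 1, 4 and 7 it was 0.72 (0.34 to 1.14), 0.85 (0.53 to 1.18) and 0.88 (0.31 to 1.48), so within those 3 clusters Sparc stayed under 2-fold. Without cluster 1 the log2 ratio of Sparc over the remaining endothelial-like cells was 0.72 and that of Col4a2 0.97, both under the 2-fold limit, while Col4a1 was at 1.07 and Sparcl1 at 4.41. With no mitochondrial maximum Sparc was at 0.85 and Col4a2 at 0.98; this filter left out 51 of 373 Normoxia and 146 of 613 Hypoxia barcodes, and the part of these barcodes was not tested.

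Fewer counts stood behind the elastic fibre genes. Fbln2, whose product fibulin-2 joins elastic fibres and basement membranes, had 1 UMI in Normoxia and 27 UMIs in Hypoxia, from 16 of 198 cells, or 3.73 and 39.5 CPM, and gave a log2 ratio of 3.40 (0.80 to 8.76). Of these Hypoxia UMIs, 40.7% came from 3 cells, and without the cell with most Fbln2 UMIs in each library 0 and 23 UMIs remained, at least 3.02-fold higher with 0 taken as 3 counts. Cluster 1 held the 1 Normoxia and 22 of the Hypoxia UMIs, from 14 of 112 cells, and its log2 ratio was 1.32 (-1.31 to 6.69), an interval that includes 0. The other 5 Hypoxia UMIs lay in cluster 4, 4 of them in 1 cell. Eln, the gene for tropoelastin, had 17 and 62 UMIs, or 63.4 and 90.7 CPM, giving a log2 ratio of 0.52 (-0.28 to 1.38). The Eln difference was not alike across clusters: the log2 ratio was 2.32 (-0.23 to 7.66) in cluster 1 from 1 and 44 UMIs, whereas cluster 4 had 10 Eln UMIs in Normoxia and 3 in Hypoxia. Cells with an Eln UMI were 15 of 97 and 42 of 198, or 5.38% and 5.24% after thinning, against 0% and 0% of lymphoid-like cells. Emilin1, for a glycoprotein at the surface of elastic fibres, had 23 and 50 UMIs (85.8 and 73.2 CPM) and gave a log2 ratio of -0.23 (-0.97 to 0.55), with -1.003 (-2.44 to 0.75) in cluster 1 from 5 and 22 UMIs and 0.90 (-0.68 to 2.75) in cluster 9 from 5 and 13.

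Of the laminin chains, Lamb2 (β2) had 13 and 32 UMIs (48.5 and 46.8 CPM) and gave a log2 ratio of -0.05 (-1.02 to 1.00), Lama5 (α5, a main endothelial chain) had 8 and 29 UMIs (29.9 and 42.4 CPM) and 0.51 (-0.66 to 1.85), and Lamc1 (γ1, shared by most laminins) had 6 and 15 UMIs (22.4 and 21.95 CPM) and -0.03 (-1.48 to 1.62). The intervals of Lamb2 and Lamc1 reached 2-fold in either direction and that of Lama5 reached past 2-fold higher, so a laminin difference of that size was not detectable at this depth. In clusters 1, 4, 7 and 9 these genes had 0 to 20 UMIs per library, and each interval that could be computed included 0. Nid1, whose product nidogen-1 ties the laminin to the collagen IV network, was the only member past 2-fold lower, with 25 UMIs in Normoxia and 28 in Hypoxia, 93.3 (60.4 to 138) CPM and 40.98 (27.2 to 59.2) CPM, giving a log2 ratio of -1.19 (-2.02 to -0.35). In cluster 9 Nid1 had 12 and 4 UMIs, giving a log2 ratio of -2.06 (-4.15 to -0.34), but in cluster 1, with 2 and 18 UMIs, the log2 ratio was 0.03 (-2.03 to 3.18). In lymphoid-like cells Nid1 was at 37.6 and 4.91 CPM, and after subtraction of these levels the log2 ratio in endothelial-like cells was -0.63, under 2-fold.

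Mgp, for matrix Gla protein, an inhibitor of calcification, had 15 and 33 UMIs in endothelial-like cells, 55.98 and 48.3 CPM, close to its 45.2 and 34.4 CPM in lymphoid-like cells, and is read as background there, although with no mitochondrial maximum its log2 ratio was 2.46. Col4a3bp had 9 and 33 UMIs (33.6 and 48.3 CPM) and gave a log2 ratio of 0.52 (-0.57 to 1.77). The remaining 29 members had 0 to 17 UMIs over both libraries in endothelial-like cells, among them Lama4 with 3 and 14, Fbln5 with 2 and 14, Fn1 with 0 and 10, Col5a2 with 6 and 6 and Hspg2 with 5 and 6. The fibrillar collagens were nearly absent, with 4 and 2 UMIs of Col1a1, 3 and 1 of Col1a2 and 8 and 2 of Col3a1. Over the endothelial-like cells the stromal marker list was at 160.5 and 58.5 CPM (15 and 14 of 22 markers detected). Within it the fibroblast list was at 100.8 and 24.9 CPM and the pericyte list at 48.5 and 14.6 CPM. The smooth muscle or myofibroblast list was higher in Hypoxia, at 82.1 and 108.3 CPM. Also higher were the lymphoid (74.6 and 174 CPM), myeloid (56.0 and 111 CPM) and epithelial lists (198 and 271 CPM). The part of transcripts from other cells in the differences between the libraries was not tested. The endothelial marker list was at 30926 CPM and 24638 CPM with all 17 markers detected in each.

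Cluster 8, kept out of the endothelial-like class, went the other way for several of these genes. It held 20 cells from each library, its endothelial marker list was at 5723 CPM in the Normoxia cells and 10760.2 CPM in the Hypoxia cells, and its epithelial list, carried by Scgb1a1, was at 95010.3 and 156244 CPM. Its Normoxia cells also carried fibroblast markers at 4514 CPM, against 311 CPM in Hypoxia, and Dcn was found in 6 of 20 and 1 of 20 cells. Here Col4a1 had a log2 ratio of -1.43 (-2.53 to -0.42), Col4a2 -3.50 (-6.63 to -1.47) and Sparc -1.89 (-2.38 to -1.43), all lower in Hypoxia, and Sparcl1 -0.44 (-1.39 to 0.49). Col3a1 (53 and 0 UMIs), Col1a2 (26 and 0) and Col1a1 (25 and 0) were at least 19.005-fold, 9.32-fold and 8.96-fold lower in Hypoxia, again with 0 taken as 3 counts, but their Normoxia UMIs came from 4 or 5 of the 20 cells. Eln and Fbln5 were higher in Hypoxia in this cluster: Eln had 2 and 32 UMIs, giving a log2 ratio of 3.89 (1.92 to 7.00), and Fbln5, needed for elastic fibre assembly, had 11 and 35 UMIs, 1.56 (0.55 to 2.69). The other fibulins were not alike, with 50 and 6 UMIs of Fbln1, -3.16 (-4.68 to -1.94), and 19 and 29 UMIs of Fbln2, 0.50 (-0.38 to 1.42). Past 2-fold higher in cluster 8 were 3 and past 2-fold lower 7 of the 13 members at the minimum, where 10.7% and 13.9% of all 1433 genes were. Other marker lists differed in cluster 8 too, with the mesothelial list at 1900 and 331 CPM and the venous list at 572 and 2258 CPM. The part of the fibroblast, mesothelial and venous markers and of the Scgb1a1 transcripts in the differences of the members was not tested.

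Other genes of the matrix pathway were read in the same endothelial-like cells. Of 20 collagen-processing enzymes and chaperones, 10 reached the minimum, 1 was past 2-fold higher and none lower, where 6.13% and 4.56% of all genes were, and these shares apply to the next lists too. The 5 with most UMIs were Serpinh1, the collagen chaperone HSP47 (0.26, -0.09 to 0.61), Ppib (-0.03, -0.36 to 0.31), Tgm2 (0.14, -0.31 to 0.60), P4hb (0.32, -0.32 to 1.00) and Plod3 (0.48, -0.62 to 1.73), given as log2 ratios. The exception was P4ha1, a catalytic subunit of prolyl 4-hydroxylase, with 2 and 27 UMIs, giving a log2 ratio of 2.40 (0.41 to 5.52), named after its value was seen. Of 20 matrix receptors, 10 reached the minimum, 1 was higher and 2 were lower past 2-fold. Those with most UMIs were Itga1 (0.35, 0.08 to 0.62), Bcam (0.07, -0.21 to 0.35), Itgb1 (-0.10, -0.39 to 0.19), Itga6 (0.37, -0.14 to 0.90) and Itga3 (-1.67, -2.39 to -0.97), the last being past 2-fold lower. Sdc4 (1.15, -0.64 to 3.57) and Itgb5 (-1.08, -1.91 to -0.23) were the other two, named after their values were seen. Of 13 matrix proteases and inhibitors, Timp2 (-0.46, -0.77 to -0.14), Adamts1 (0.77, 0.30 to 1.27) and Timp3 (1.04, 0.53 to 1.58) reached the minimum, and Timp3, a matrix-bound inhibitor of metalloproteinases, was past 2-fold higher.

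The second comparison concerned the stromal-like cells, where most members were well counted in Normoxia but came from only 27 cells in Hypoxia. Mgp, Fn1, Sparcl1 and Col1a2 were higher in the Hypoxia cells, and Col3a1, Col6a1, Col6a2, Fbn1, Col15a1 and Hspg2 were lower, each by more than counting error and most by less than 2-fold. The intervals of Col5a2, Lamc1, Emilin1, Fbln1, Fbln2 and Col12a1 also lay below 0. Fn1, Col1a2, Col3a1, Col6a1, Col6a2 and Fbln1 changed sign in some of the settings given below. Of the 42 members 37 reached 20 UMIs, 2 were past 2-fold higher (Col18a1 and Col13a1), where 5.36% of all 3620 genes were, and 7 were past 2-fold lower (Col12a1, Col15a1, Hspg2, Emilin1, Col16a1, Fbn1 and Col6a2), where 11.8% of all genes were. The median log2 ratio was -0.27 over members and -0.09 over all genes. The cell mixture differed: cluster 5, which carried the fibroblast genes Inmt, Clec3b and Pi16, gave 39 Normoxia and 21 Hypoxia cells, and cluster 6, which carried Hhip, Rgs5 and Acta2, gave 45 and 6. The smooth muscle or myofibroblast marker list was at 3783 CPM in the Normoxia cells and 1665 CPM in the Hypoxia cells, and the fibroblast list at 14930.3 and 21706 CPM, so values within cluster 5 are given beside the sums. Within cluster 5, 34 members reached the minimum, 1, Mgp, was past 2-fold higher (6.1% of all 2392 genes) and 10 lower (11.2%), with a median log2 ratio of -0.50 against -0.10 over all genes. Col18a1 and Col13a1 were not past 2-fold within cluster 5, with log2 ratios of at most 0.77 and 0.95. In cluster 6, 1 of 15 members was past 2-fold higher (6.29% of all genes), namely Sparcl1, and 1 lower (16.8%), namely Fbln1.

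**Figure D5:**
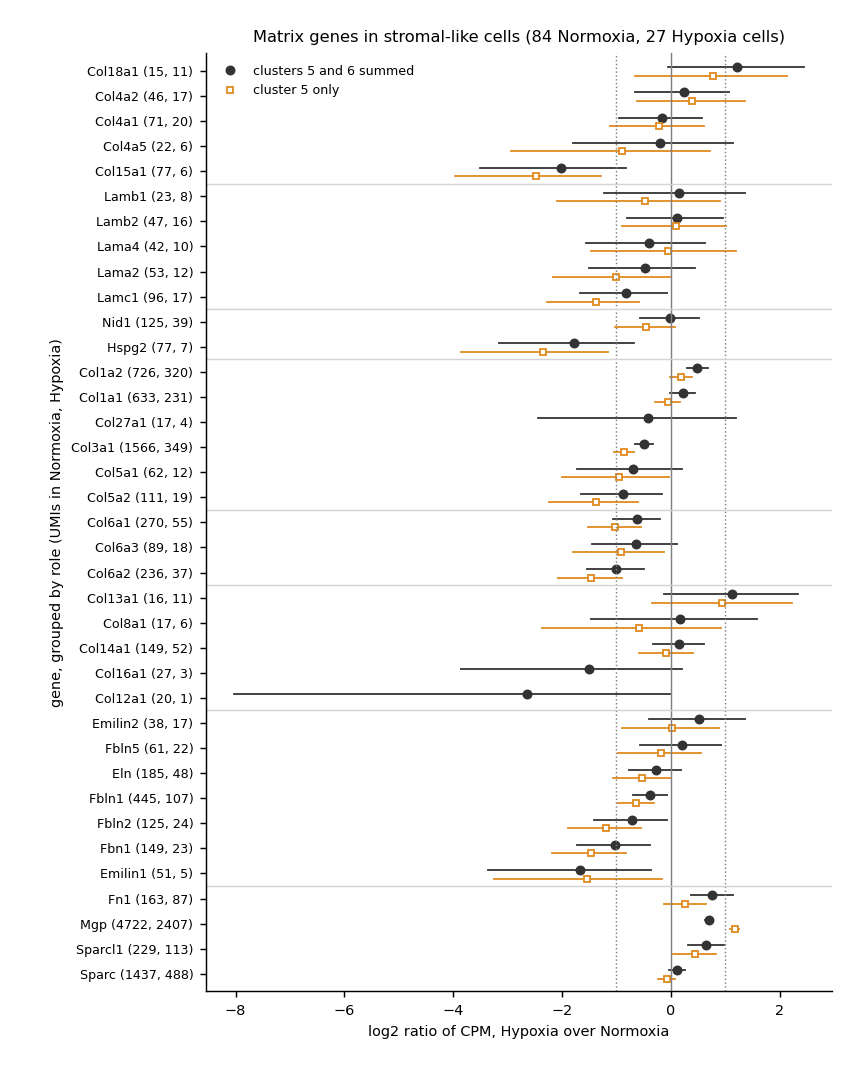
Log2 ratio of CPM, Hypoxia over Normoxia, for the 37 members with at least 20 UMIs in stromal-like cells, grouped by role; filled circles are clusters 5 and 6 summed, open squares cluster 5 alone where the gene had 20 UMIs there, bars 95% counting intervals, dotted lines the 2-fold limits, and numbers in brackets the summed UMIs. Collagen VI genes, Hspg2, Col15a1, Fbn1 and Emilin1 lie left of 0 in both, and Mgp lies right of 0 in both.

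Mgp was the most abundant member by far. Its 4722 Normoxia and 2407 Hypoxia UMIs corresponded to 12984 (12616 to 13359) CPM and 21093 (20259 to 21953) CPM, giving a log2 ratio of 0.70 (0.63 to 0.77). The difference lay in cluster 5, with 9461 and 21339.8 CPM, giving a log2 ratio of 1.17 (1.09 to 1.26), whereas in cluster 6 the levels were 18486 and 19666 CPM and the log2 ratio 0.09 (-0.08 to 0.25). A few cells weighed heavily: of the 2407 Hypoxia UMIs 52.6% came from 3 cells, the median cell held 36.5 Mgp UMIs in Normoxia and 43 in Hypoxia, and the log2 ratio was 0.31 after thinning. Mgp was detected in 79 of 84 Normoxia and 25 of 27 Hypoxia cells, and after thinning in 87.95% and 86.4%, against 4.84% and 5.22% of lymphoid-like cells. Fn1, for fibronectin, was almost confined to cluster 5, with 163 of 163 Normoxia and 86 of 87 Hypoxia stromal UMIs there. Its level was 448 and 762 CPM, and its log2 ratio was 0.77 (0.37 to 1.15) over all stromal-like cells but 0.27 (-0.13 to 0.65) within cluster 5 and -0.08 after thinning.

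Sparcl1 and Sparc, which differed between the libraries in endothelial-like cells, were abundant in the stromal-like cells of both libraries. Sparcl1 had 629.7 CPM in the Normoxia cells and 990.2 CPM in the Hypoxia cells, giving a log2 ratio of 0.65 (0.32 to 0.98), with 0.44 (0.04 to 0.84) in cluster 5 and 1.42 (0.74 to 2.06) in cluster 6, where the 6 Hypoxia cells held 27 UMIs. In Hypoxia its level in endothelial-like cells, 824 (757 to 895) CPM, and in stromal-like cells, 990.2 (816 to 1191) CPM, had overlapping intervals, whereas in Normoxia the levels were 37.3 and 629.7 CPM. Sparc was at 3951 and 4276 CPM, giving a log2 ratio of 0.11 (-0.04 to 0.26) that did not exceed counting error, at -0.08 (-0.23 to 0.08) in cluster 5 and at -0.78 (-1.47 to -0.15) in cluster 6. Without the cell with most Sparc UMIs in each library it was -0.44. Sparc was detected in 79 of 84 and 24 of 27 cells, and after thinning in 73.5% of Normoxia and 81.8% of Hypoxia stromal-like cells.

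The fibrillar collagens form the interstitial fibres. Collagen I is assembled from the chains of Col1a1 and Col1a2, and Col3a1 codes for the chain of collagen III. Col1a1 had 633 and 231 UMIs (1740.5 and 2024 CPM) and gave a log2 ratio of 0.22 (-0.01 to 0.44), and Col1a2 had 726 and 320 UMIs (1996 and 2804 CPM) and 0.49 (0.30 to 0.68). In cluster 6 the log2 ratio of Col1a2 was -0.48. Within cluster 5 neither differed by more than counting error, at -0.06 (-0.30 to 0.17) and 0.19 (-0.01 to 0.39). Over the alternative settings the log2 ratio of Col1a1 in stromal-like cells ranged from -0.54 to 0.45. Col3a1 was lower, with 1566 and 349 UMIs, 4306 and 3058 CPM, giving a log2 ratio of -0.49 (-0.67 to -0.33), and more so within cluster 5, where 5542 and 3043 CPM gave -0.87 (-1.05 to -0.68). In cluster 6 it was 0.41 (-0.04 to 0.83). The genes Col1a1, Col1a2 and Col3a1 had a UMI in 77 of 84, 73 of 84 and 79 of 84 Normoxia and in 20 of 27, 20 of 27 and 24 of 27 Hypoxia cells. Thinned, the shares were 66.3% and 63.6% for Col1a1 and 68.7% and 63.6% for Col1a2, where no thinned lymphoid-like share of the 3 genes was above 1.61%. After thinning Col3a1 was detected in 85.5% of Normoxia and 90.9% of Hypoxia stromal-like cells and its log2 ratio was 0.08, no longer lower.

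Counts of the Hypoxia cells rested on few of them here as well. A single cluster 5 cell with 6723 UMIs held 761 of the member UMIs, 16.4% of those of all 27 Hypoxia stromal-like cells, although 5.89% of their total UMIs. For Col1a1 the top cell held 47.6% of the Hypoxia UMIs, for Sparc 41.4%, for Col1a2 35% and for Col3a1 32.7%, compared with 5.92 to 11.1% for the top Normoxia cell of these genes. Median counts per cell were close, at 3.5 Col1a1, 5 Col1a2 and 10 Col3a1 UMIs in Normoxia and 3, 4 and 9 in Hypoxia. The minor fibrillar chains were lower or uncertain: Col5a2, which with Col5a1 limits the width of collagen I fibrils, had 111 and 19 UMIs (305 and 166 CPM) and gave a log2 ratio of -0.87 (-1.66 to -0.16), Col5a1 -0.70 (-1.72 to 0.21) from 62 and 12 UMIs (170.5 and 105 CPM), and Col27a1 -0.42 (-2.45 to 1.20) from 17 and 4 (46.7 and 35.1 CPM). Col5a3, with 17 and 0 UMIs, was below the minimum.

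Collagen VI, a beaded filament network around cells, is built from 1 chain each of Col6a1, Col6a2 and Col6a3, and Col6a1 and Col6a2 were lower in the Hypoxia stromal-like cells by more than counting error. Col6a1 had 270 and 55 UMIs, 742 and 482 CPM, giving a log2 ratio of -0.62 (-1.07 to -0.20). Col6a2 had 236 and 37 UMIs, 649 and 324 CPM, giving a log2 ratio of -1.001 (-1.54 to -0.50). Col6a3 had 89 and 18 UMIs (245 and 158 CPM) and gave a log2 ratio of -0.63 (-1.45 to 0.11), whose interval crossed 0. Within cluster 5 the log2 ratios were -1.03 (-1.53 to -0.56), -1.47 (-2.07 to -0.91) and -0.92 (-1.80 to -0.12), all below 0 by more than counting error. In cluster 6, with 2 to 10 UMIs in its 6 Hypoxia cells, they were 0.47 (-0.66 to 1.44), 0.33 (-1.06 to 1.48) and -0.25 (-3.39 to 1.80).

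Among basement membrane genes the direction differed from gene to gene. Col4a1 and Col4a2, higher in the endothelial-like cells of the Hypoxia library, did not differ by more than counting error in stromal-like cells, at -0.16 (-0.95 to 0.58) from 71 and 20 UMIs (195 and 175 CPM) and 0.24 (-0.66 to 1.07) from 46 and 17 (126 and 149 CPM). Col15a1 and Col18a1 code for related collagens of the basement membrane zone and went in opposite directions. Col15a1 had 77 UMIs in Normoxia and 6 in Hypoxia, 212 (167 to 265) CPM and 52.6 (19.3 to 114) CPM, giving a log2 ratio of -2.01 (-3.50 to -0.82), and 76 and 6 of these UMIs lay in cluster 5. Col18a1 had 15 and 11 UMIs (41.2 and 96.4 CPM) and gave a log2 ratio of 1.22 (-0.04 to 2.45), past 2-fold but with an interval that included 0. Within cluster 5 it was at most 0.77. Col4a5 (22 and 6 UMIs, 60.5 and 52.6 CPM) was at -0.20 (-1.79 to 1.14).

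Hspg2, for the heparan sulfate proteoglycan perlecan, had 77 UMIs in Normoxia, from 34 cells, and 7 in Hypoxia, 212 (167 to 265) CPM and 61.3 (24.7 to 126) CPM, giving a log2 ratio of -1.79 (-3.15 to -0.68), and within cluster 5 -2.36 (-3.85 to -1.16). This value depended on the mitochondrial filter: it was -0.85 with a maximum of 10% and -0.55 with none, which kept 95 and 38 stromal-like cells. Nid1 did not differ by more than counting error in the same cells, with 125 and 39 UMIs (344 and 342 CPM) and -0.01 (-0.57 to 0.52). Of the laminins, Lamc1 was lower, -0.83 (-1.66 to -0.07) from 96 and 17 UMIs (264 and 149 CPM), and in cluster 5 -1.38 (-2.28 to -0.58). Lama2, the α2 chain of interstitial and muscle laminins, had 53 and 12 UMIs (146 and 105 CPM) and was at -0.47 (-1.51 to 0.45), and Lama4, the α4 chain of vessel walls, had 42 and 10 UMIs (115 and 87.6 CPM) and was at -0.40 (-1.56 to 0.62). The β chains Lamb1, with 23 and 8 UMIs (63.2 and 70.1 CPM), and Lamb2, with 47 and 16 UMIs (129 and 140.2 CPM), were at 0.15 (-1.22 to 1.36) and 0.12 (-0.80 to 0.96). All 4 intervals included 0. Lama5, with 2 UMIs in each library, was below the minimum.

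Several genes of the elastic fibre were lower in the Hypoxia cells. Fbn1, for fibrillin-1 of the microfibrils, had 149 and 23 UMIs, 409.7 and 202 CPM, giving a log2 ratio of -1.02 (-1.72 to -0.38). Emilin1 had 51 and 5 UMIs (140.2 and 43.8 CPM) and -1.68 (-3.36 to -0.36), Fbln2 125 and 24 UMIs (344 and 210.3 CPM) and -0.71 (-1.40 to -0.07), and Fbln1 445 and 107 UMIs (1224 and 938 CPM) and -0.38 (-0.70 to -0.08), each below 0 by more than counting error. After thinning the log2 ratio of Fbln1 was 0.15, no longer lower. Of the 24 Fbln2 UMIs in Hypoxia 17 came from 1 cell, and without the top cell of each library its log2 ratio was -2.27. Eln itself, with 185 and 48 UMIs, 509 and 421 CPM, was at -0.27 (-0.76 to 0.19), and Fbln5 at 0.20 (-0.57 to 0.93) from 61 and 22 UMIs (168 and 193 CPM). Emilin2, with 38 and 17 UMIs (104 and 149 CPM), was at 0.51 (-0.41 to 1.37), and 12 of the 17 Hypoxia UMIs came from 1 cell. In cluster 5 Fbn1, Emilin1, Fbln1 and Fbln2 had log2 ratios of -1.47 (-2.19 to -0.82), -1.53 (-3.25 to -0.17), -0.64 (-0.97 to -0.32) and -1.19 (-1.89 to -0.55).

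The remaining collagens had few counts in Hypoxia. Col14a1, a fibril-associated collagen, was the best measured of them, with 149 and 52 UMIs (409.7 and 456 CPM), giving a log2 ratio of 0.15 (-0.33 to 0.62). Col12a1, of the same kind, had 20 and 1 UMIs (54.99 and 8.76 CPM) and -2.65 (-8.02 to -0.01), and Col16a1 27 and 3 UMIs (74.2 and 26.3 CPM) and -1.50 (-3.86 to 0.20). Col13a1, a transmembrane collagen, had 16 and 11 UMIs (43.99 and 96.4 CPM) and 1.13 (-0.12 to 2.33), and Col8a1 17 and 6 UMIs (46.7 and 52.6 CPM) and 0.17 (-1.46 to 1.58). Of these 5 intervals, 4 included 0 and that of Col12a1 ended just below it. Below the minimum here were also Col23a1, with 11 and 2 UMIs, and Col4a3bp, with 7 and 5.

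Processing enzymes gave a mixed picture in stromal-like cells. Of the 20, 14 reached the minimum, 1 was past 2-fold higher and 2 lower, where 5.36% and 11.8% of all genes were, as for the receptors and proteases. The 5 with most UMIs were Serpinh1 (-0.53, -0.87 to -0.20), Pcolce (-0.40, -0.75 to -0.06), Ppib (-0.20, -0.61 to 0.19), Loxl1 (-0.26, -0.79 to 0.25) and Adamts2 (0.16, -0.36 to 0.66). The lysyl oxidases, which crosslink collagen and elastin, differed among themselves: Lox had 27 and 22 UMIs and 1.38 (0.50 to 2.24), and Loxl2 53 and 3 UMIs and -2.47 (-4.79 to -0.85). These and P4ha3 (-1.36, -3.06 to -0.02) are named after their values were seen. P4ha3 reached the minimum in cluster 6 but not in cluster 5. All ratios of these lists are sums over clusters 5 and 6, whose mixture differed between the libraries, and the part of this mixture was not tested. Of the receptors, 9 reached the minimum and 2 were past 2-fold higher, Sdc4 (1.20, 0.54 to 1.85) and, named after its value was seen, Itga8 (2.58, 1.25 to 4.02). Itga8 reached the minimum in neither cluster alone. Itgb1 (0.24, -0.38 to 0.82), Sdc2 (0.04, -0.63 to 0.67), Itgb5 (0.12, -0.58 to 0.78) and Ddr2 (0.59, -0.14 to 1.29) were the others with most UMIs. Of the proteases and inhibitors, 10 reached the minimum and Htra1 (-1.39, -2.05 to -0.79) was past 2-fold lower, beside Timp2 (0.34, 0.10 to 0.59), Timp3 (0.47, 0.16 to 0.76), Htra3 (-0.80, -1.36 to -0.28) and Mmp2 (-0.25, -0.74 to 0.22).

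Side by side, the 11 members at the minimum in both classes had their own pattern in each. For Sparcl1 the log2 ratio was 4.46 (3.57 to 5.53) in endothelial-like and 0.65 (0.32 to 0.98) in stromal-like cells, both above 0. For Col4a1, Col4a2 and Sparc it was above 0 by more than counting error in endothelial-like cells, and its interval included 0 in stromal-like cells. Fbln2 went in opposite directions, 3.40 (0.80 to 8.76) against -0.71 (-1.40 to -0.07), the former from 1 Normoxia UMI. Emilin1 was lower past 2-fold in stromal-like cells and at -0.23 (-0.97 to 0.55) in endothelial-like cells. These differences between classes were not tested, and the 2 classes come from the same 2 libraries.

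A few members were expressed outside both classes. Lamb3, known as a chain of the laminin of epithelial anchoring sites, had 59 of 65 retained UMIs in lymphoid-like cells. In the lymphoid-like cluster 3, led by Cd79a, Lamb3 had 11 UMIs in 8 of 31 Normoxia cells and 27 UMIs in 20 of 54 Hypoxia cells, and in cluster 2, led by Ccl5 and Nkg7, 4 UMIs in 3 of 13 and 16 UMIs in 12 of 76 cells. Stromal-like cells had no Lamb3 UMI. Fn1 was found in myeloid-like cells at 425 and 462 CPM, and among these cells cluster 12, led by Ccl3 and Plbd1, had 26 UMIs in 2 of 9 and 109 UMIs in 7 of 20 cells. Emilin2 was found in the same cluster with 3 UMIs in 1 of 9 and 44 UMIs in 10 of 20 cells, and its level over all myeloid-like cells was 57.1 and 184 CPM.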

How the data were processed

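Cells of NG2tdT mouse lungs were profiled with the Chromium Single Cell 3' v3.1 chemistry, in 1 Normoxia and 1 Hypoxia library. Unnormalized UMI counts were deposited for every gene and barcode, made by the authors with Cell Ranger (3.1.0 per the file headers) on mm10. Amplification copies are collapsed in these counts, and each captured transcript counts once whatever the length of the gene. Columns of per-sample values that were not used numbered 0. The study's methods describe a whole-lung preparation under another series, so it is not certain that its filters were applied to these libraries.

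Barcodes with 200 to 6000 genes and no more than 5% mitochondrial UMIs were clustered jointly with scanpy 1.11.5 (genes in at least 3 cells, log-normalization to 10000 UMIs, 2000 variable genes without the members and related matrix lists, 15 components, 15 neighbours, Leiden resolution 1). Clusters were named from markers detected in at least 25% of cells at 2 times the median level or more, with at least 3 such markers and more than for any other class. No other class could have more markers among the 10 leading genes of the cluster. The last condition left cluster 8 unnamed, since its leading genes held the epithelial marker Scgb1a1 and no endothelial marker of the list. Scrublet marked 1 Normoxia and 2 Hypoxia cells, which were kept.

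CPM of a gene is its summed UMIs in a class and library, scaled by the summed UMIs of all genes there. Intervals at 95% (scipy 1.17.1) are exact: Poisson for sums, conditional binomial for ratios and Clopper-Pearson for shares. They reflect counting error alone, and 0 was taken as up to 3 counts. Members with at least 20 UMIs in a class were named with their values, the 5 with most UMIs also with shares of cells at 1000 UMIs, and from each related list the 5 with most UMIs. The members and lists were chosen with earlier results of these data known. Gene positions come from GENCODE M21 and promoters from RefSeq, both on GRCm38. On simulated counts with 200 changed genes, 96.5% of intervals held the true ratio for the 6312 genes in endothelial-like cells and 97.3% for the 3620 in stromal-like cells. These counts were drawn as Poisson sums, the model on which the intervals rest. The simulation therefore checks the calculation only and not the spread between cells or animals.

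Alternatives were other mitochondrial and gene maximums, doublet removal, resolutions 0.5 and 1.5, members among the variable genes, cells chosen one by one, centring, equal weight per cell, leaving out the top cell, UMI minimums of 10 and 50, thinning, subtraction of the lymphoid-like level and single clusters. Adding cluster 8, leaving out cluster 1, equal weight per cluster and leaving out the top Sparcl1 cell of clusters 7 and 9 were chosen after seeing the data.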

Additional observations from a re-analysis of the deposited data

Results flagged for a closer look

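Fbln2 was higher in Hypoxia in endothelial-like cells and lower in stromal-like cells, with log2 ratios of 3.40 and -0.71, a difference of 4.11 that rests on 1 Normoxia UMI in endothelial-like cells and on 17 Hypoxia UMIs of 1 stromal-like cell. This difference between cell classes was not tested.

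The collagen IV genes and Sparc had opposite directions in the endothelial-like clusters and in unnamed cluster 8, each with intervals that left out 0. The log2 ratio of Col4a1 was higher by 3.19 in cluster 1 and by 2.82 in cluster 4 than in cluster 8, and that of Col4a2 by 5.17 and 4.86. For Sparc the differences from cluster 8 were 2.62, 2.75 and 2.77 for clusters 1, 4 and 7, and cluster 8 less cluster 9 gave -4.67. None of these differences was tested. The clusters come from the same 2 libraries, and the summed fibroblast markers of cluster 8 were also lower in Hypoxia.

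Among cells outside both comparisons, 90.8% of the retained Lamb3 UMIs and 51.3% of the retained Emilin2 UMIs lay in lymphoid-like and myeloid-like cells. Both shares are descriptions of where the UMIs lay, with no comparison between the libraries.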

How the results depend on the processing

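Of 763 values of named members under an alternative, 685 moved by less than their counting interval, and the others by more. Of the others, 22, from 12 members, also changed sign. Past 2-fold before the change were 2: Nid1 in endothelial-like cells was at 0.030 in cluster 1 alone, and Col6a2 in stromal-like cells at 0.33 in cluster 6 alone. The remaining 20 had been under 2-fold. They include Mgp in endothelial-like cells, at 2.46 with no mitochondrial maximum and 2.497 with cells chosen one by one, and in stromal-like cells Col3a1 and Fbln1, at 0.08 and 0.15 after thinning, Fn1, at -0.08 after thinning, and Col3a1, Col6a1 and Col1a2, at 0.41, 0.47 and -0.48 in cluster 6 alone. Col1a1 in stromal-like cells is also among them, at -0.54 in its lowest setting. The cause was not tested. In endothelial-like cells the count past 2-fold higher was 3 after thinning, which left 6 members at the minimum, and 2 without cluster 1. The count past 2-fold lower was 2 with no mitochondrial maximum and with cells chosen one by one, 4 at a UMI minimum of 10, 0 after thinning and after subtraction of the lymphoid-like level, and 6 with cluster 8 added. In stromal-like cells the count past 2-fold higher was 1 without Scrublet doublets, with cells chosen one by one, with equal weight per cell and with equal weight per cluster, and 0 without the top cell, at a UMI minimum of 50 and after thinning. The count past 2-fold lower there was 3 after thinning. Apart from the setting with cluster 8 added, these counts are not set beside the share over all genes at the same setting. They describe how the calls moved and do not compare the members with other genes. The log2 ratio in endothelial-like cells ranged over the alternatives from 2.94 to 4.75 for Sparcl1, 0.79 to 1.81 for Col4a1, 0.56 to 1.67 for Col4a2 and 0.55 to 2.77 for Sparc, all above 0. No paired analysis was possible because each group was 1 library. Depth limits the members with few UMIs most, in particular those with under 10 UMIs in the 27 Hypoxia stromal-like cells.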

Other observations

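Barcodes left out by the filters also held matrix transcripts. Members made up 0.458% (0.430 to 0.488%) of the UMIs of the 80 Normoxia barcodes left out and 0.483% (0.461 to 0.505%) for the 160 such Hypoxia barcodes. These barcodes carried 6.58% of all member UMIs of the Normoxia library and 17.9% of those of the Hypoxia library, and Mgp gave 353 and 801 of the UMIs. Few barcodes weighed heavily: the top 3 held 51.4% of these member UMIs in Normoxia and 46.7% in Hypoxia, where 1 barcode held 586 of 1917.

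Within the Hypoxia endothelial-like cells, 131 of the 144 cells with a Sparcl1 UMI (91.0%) also had a UMI of Col4a1 or Col4a2, and 41 of the 54 cells without one (75.9%). In the Normoxia endothelial-like cells these were 6 of 9 (66.7%) and 54 of 88 (61.4%). The median depth of the Hypoxia cells with and without a Sparcl1 UMI was 2896.5 and 2597.5 UMIs. The part of depth and of the mixture of clusters in this difference was not tested.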
